A study of Mus musculus with 6 samples.

Results

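Fcer1g, Tyrobp, Hcst, Clnk and Syk encode the signalling adaptors, the kinase and an adaptor of its pathway through which many innate receptors act, and their transcripts were followed in double negative (DN) T cells of the mouse kidney. The 5 genes were found by their symbols among the 32285 features of 6 single-cell libraries, and unique molecular identifiers (UMIs, counts of captured RNA molecules) were summed over the barcodes that held a Cd3d, Cd3e or Cd3g UMI. This left 46518 of 54039 barcodes as cells, of which 12565 were DN cells. T cells (CD45+, αβ T cell receptor positive) had been sorted from the kidneys of 7 to 8 week old male C57BL/6J mice and divided into CD4, CD8 and DN (CD4-, CD8-) cells. Kidneys were normal, with no surgery named in the labels (control), or had undergone ischemia-reperfusion with clamping of both renal pedicles for 30 min (IR). Each of the 6 groups was 1 library, and the number of mice pooled in it and the time of harvest of the sorted cells are not given in the sources used here. With 1 library per group no test was made and no difference has a replicate check, so all intervals are 95% intervals for counting error only, which leave out the differences between mice, sorts and runs.

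Receptors without a signalling tail pair in the membrane with small adaptor proteins. Fcer1g (the FcRγ chain) and Tyrobp (DAP12) carry an immunoreceptor tyrosine-based activation motif (ITAM), a pair of spaced tyrosines that bind the kinase Syk or its relative Zap70 once phosphorylated, as the chains of the T cell receptor complex also do. Hcst (DAP10) carries another tyrosine motif, which recruits phosphoinositide 3-kinase, and is known as the partner of the receptor NKG2D (Klrk1). Clnk is a relative of the scaffold proteins Lcp2 (SLP-76) and Blnk, which assemble effectors beneath these kinases. These adaptors are best known in natural killer (NK), myeloid and mast cells.

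The coding sequences of the tyrosine motifs are shown because they are what divides the 3 adaptors into those that can bind Syk and the one that binds phosphoinositide 3-kinase. They were read from the GENCODE M21 transcripts, in the sense of the gene from 5′ to 3′, with the tyrosine codons in capitals. The ITAM was searched in the reading frame as a tyrosine codon, 2 further codons and a leucine or isoleucine codon, followed after 6 to 8 codons by the same 4-codon pattern, and the Hcst motif as a tyrosine codon, 2 codons and a methionine codon.
Fcer1g: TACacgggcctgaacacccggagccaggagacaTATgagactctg
Tyrobp: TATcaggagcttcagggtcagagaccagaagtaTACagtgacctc
Hcst: TACatcaacatg
The Fcer1g motif spans chr1:171229889-171230072 on the minus strand of GRCm38 (mm10) and lies in the coding parts of exons 4 and 5 of 5, with an intron inside these bounds. The Tyrobp motif spans chr7:30415670-30417382 on the plus strand, also in coding exons 4 and 5 of 5. The Hcst motif lies at chr7:30417821-30417832 on the minus strand, in coding exon 4 of 4. The search found 1 ITAM in Fcer1g and in Tyrobp and 0 in Hcst, against 1 in each of Cd3d, Cd3e and Cd3g and 3 in Cd247, the ζ chain of the T cell receptor complex. Tyrobp and Hcst are neighbours on chromosome 7 whose 3′ ends face each other 126 bases apart, whereas Fcer1g lies at chr1:171229572-171234365, Clnk at chr5:38706462-38876812 with 168632 bases of intron, and Syk at chr13:52583173-52648792.

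Libraries differed in depth. The median was 6713 to 8385 UMIs per cell in the control libraries and 1483 to 2382 in the IR libraries, and the pooled cells of a library held 4121804 to 60689465 UMIs over the features retained. Levels are therefore given as a gene's UMIs for every 1000000 of these UMIs (CPM), and shares of cells with a UMI are given after each cell was thinned to 1000 UMIs, with the unthinned share beside it. Between 97 and 118 barcodes were shared by any pair of control libraries and 164 to 168 by any pair of IR libraries, against 8 to 33 between conditions. Leaving the shared barcodes out changed no call of the 5 genes between DN and CD4 or CD8 cells. The headers of the matrices name Cell Ranger 5.0.1 for the control and 6.0.1 for the IR libraries, so that condition and software version cannot be told apart. All 7 genes of the T cell receptor complex were present at 10 CPM or more in every library, summing to 6831 CPM in control DN and 7249 CPM in IR DN.

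Fcer1g, Tyrobp and Clnk were higher in DN cells than in both CD4 and CD8 cells, in the normal and in the ischemic kidney, whereas Hcst was at a similar level in the 3 subsets and Syk was close to absent throughout. A gene was called higher at 10 CPM or more and at least 2-fold above both other subsets. In control kidneys 3 of the 5 genes met this rule, against 0.829% of the 9044 genes compared, and 0.940% of these were lower in DN cells by the same rule. In IR kidneys the same 3 genes met it, against 1.61% of 9054 genes, with 1.65% lower. The 2 ratios of a kidney share their DN library and are not independent of each other.

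**Figure D1:**
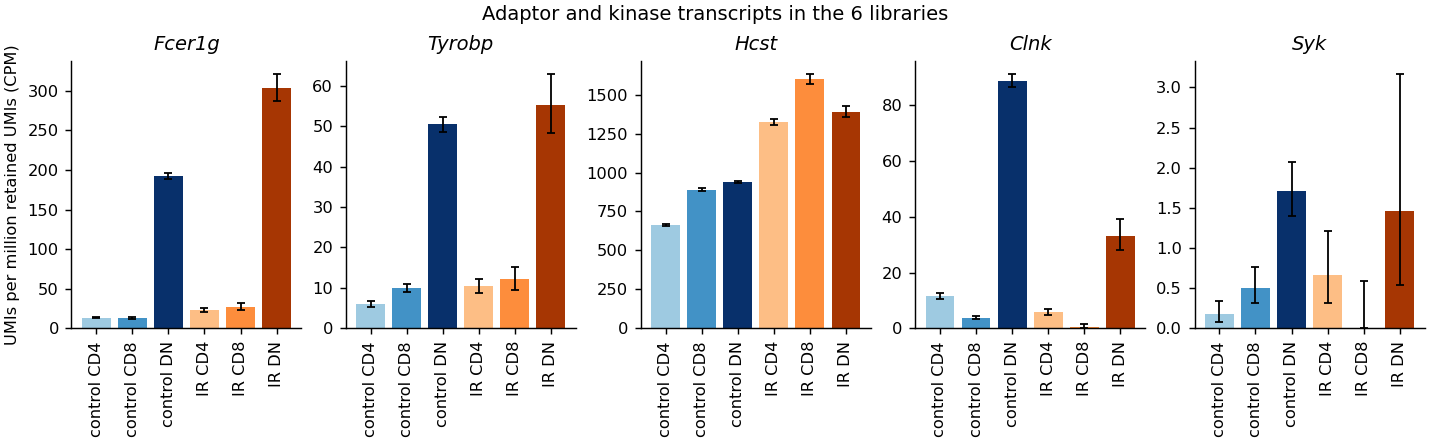
Level of each gene in the 6 libraries, in CPM of the retained UMIs, with a separate linear axis for each gene. Bars are single libraries and error bars are exact 95% Poisson intervals for counting error. The DN bars of Fcer1g, Tyrobp and Clnk stand above the CD4 and CD8 bars of the same kidney, and those of Hcst do not stand apart.

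In control kidneys Fcer1g was at 13.5 CPM in the CD4, 13.1 CPM in the CD8 and 192 CPM in the DN library. In IR kidneys it was at 22.6, 27.1 and 304 CPM in the CD4, CD8 and DN libraries. The 2 DN libraries were thus high and the 4 others low, with no overlap of their intervals. The level in DN cells was 14.2-fold that of CD4 cells and 14.7-fold that of CD8 cells in control kidneys, with log2 ratios of 3.83 (interval 3.72 to 3.94) and 3.88 (3.76 to 4.00). In IR kidneys these ratios were 13.4-fold and 11.2-fold, with log2 ratios of 3.75 (3.57 to 3.93) and 3.49 (3.26 to 3.73). By its ratio to the nearer subset Fcer1g was number 4 of the 75 genes higher in control DN cells and number 3 of 146 in IR DN cells. CD4 and CD8 cells did not differ in Fcer1g beyond the counting error in either kidney.

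Most DN cells gave no Fcer1g UMI, and a minority gave many. Of 8836 control DN cells 24.7% held a UMI, with a median of 4 UMIs in those cells and a highest value of 33. Cells with 3 or more UMIs made up 16.2% of control DN cells and held 91.1% of all Fcer1g UMIs there. In the shallower IR DN library a UMI was found in 15.1% of 3729 cells, with a median of 2 UMIs. After thinning the share was 9.90% (9.29 to 10.5) in control DN and 11.8% (10.8 to 13.0) in IR DN cells, against 0.763%, 0.837%, 0.989% and 1.0% in the CD4 and CD8 libraries. As a measure of free RNA, CD4 and CD8 cells with a UMI of Ccr7, a marker of naive and recirculating T cells, gave a thinned share of 0.0906% to 0.864%. The unthinned share in these cells was 0.136% to 2.20%, at medians of 1902 to 9358.5 UMIs per cell where DN cells had 8385 and 1483. Set against the Ccr7 positive cells of the same library, the thinned shares were 0.837% and 0.147% (0.0037 to 0.814) in control CD4, 0.763% and 0.197% (0.0406 to 0.574) in control CD8, 1.0% and 0.864% (0.504 to 1.38) in IR CD4 and 0.989% and 0.0906% (0.011 to 0.327) in IR CD8 cells. The share in all cells was thus close to that of Ccr7 positive cells in IR CD4 and above it in the other CD4 and CD8 libraries, and both DN shares were above all 4 of these background values. Within the DN libraries, Fcer1g was found in 5 of 31 thinned Ccr7 positive cells of control and 3 of 22 of IR kidneys, and in 4 of 66 and 17 of 302 thinned barcodes without a Cd3 UMI, so that no cells lacking the gene were at hand there and the free RNA of the DN libraries was not measured.

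Tyrobp was at 6.05, 9.91 and 50.5 CPM in the control CD4, CD8 and DN libraries. In the IR libraries it was at 10.4, 12.1 and 55.3 CPM. DN cells were again the highest in both kidneys, at 8.34-fold the CD4 and 5.09-fold the CD8 level in control kidneys and 5.33-fold and 4.58-fold in IR kidneys. The log2 ratios were 3.06 (2.89 to 3.23) and 2.35 (2.21 to 2.49) in control and 2.41 (2.11 to 2.72) and 2.19 (1.81 to 2.59) in IR kidneys. A Tyrobp UMI was present in 9.40% of DN cells in control and 3.78% in IR kidneys, which thinning brought to 2.63% (2.31 to 2.99) and 2.58% (2.07 to 3.16). In the CD4 and CD8 libraries the thinned shares were 0.372% to 0.494%. The thinned share in Ccr7 positive CD4 and CD8 cells was 0.0906% to 0.508%, and unthinned 0.0905% to 1.22%.

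Clnk was at 11.6, 3.85 and 88.8 CPM in the control CD4, CD8 and DN libraries. After ischemia it was at 5.75 CPM in CD4, 0.645 CPM in CD8 and 33.2 CPM in DN cells, where the CD8 value rested on 4 UMIs. Here the CD4 cells lay between the DN and the CD8 cells in both kidneys, unlike for Fcer1g. DN cells held 7.69-fold the CD4 and 23.1-fold the CD8 level in control kidneys, with log2 ratios of 2.94 (2.82 to 3.07) and 4.53 (4.31 to 4.75). In IR kidneys the log2 ratios were 2.53 (2.13 to 2.93) against CD4 and 5.69 (4.30 to 7.58) against CD8. The thinned share of cells with a Clnk UMI was 6.29% (5.79 to 6.81) in control DN and 2.14% (1.68 to 2.68) in IR DN cells, from 22.7% and 3.33% before thinning, and at most 0.147% in Ccr7 positive CD4 and CD8 cells.

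Hcst was found in all subsets. It was at 665, 889 and 940 CPM in the control CD4, CD8 and DN libraries and at 1326, 1602 and 1390 CPM in the same subsets of IR kidneys. The log2 ratio of DN over CD4 cells was 0.50 (0.48 to 0.52) in control and 0.07 (0.03 to 0.11) in IR kidneys, and that of DN over CD8 cells was 0.08 (0.06 to 0.10) and -0.20 (-0.25 to -0.16). These intervals exclude 0 and also the 2-fold limit, but the sign in IR kidneys depended on the scaling, with -0.03 over CD4 after TMM scaling and 0.14 over CD8 when mitochondrial, ribosomal protein and Malat1 counts were kept in the total. The thinned share of cells with an Hcst UMI was 37.3%, 45.3% and 49.97% in the control CD4, CD8 and DN libraries and 51.7% to 59.5% in the 3 IR libraries, with 70.6% to 94.5% before thinning. Ccr7 positive CD4 and CD8 cells gave 24.9% to 44.0% thinned and 65.9% to 87.8% unthinned, so that Hcst, unlike the ITAM adaptors, was also found in a large share of these cells.

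Syk, the kinase that binds both ITAM adaptors, was below 2 CPM in every library. There were 9 UMIs in control CD4 (0.179 CPM), 23 in control CD8 (0.506 CPM) and 104 in control DN cells (1.71 CPM). In IR kidneys there were 10 UMIs in CD4 (0.661 CPM), 0 in CD8 and 6 in DN cells (1.46 CPM), and 3 counts, the limit that a count of 0 allows, correspond to 0.483 CPM in IR CD8. The control DN library was the highest, with log2 ratios of 3.26 (2.28 to 4.43) over CD4 and 1.76 (1.10 to 2.48) over CD8. The first of these became 1.73 with no Cd3 UMI required, 1.78 after thinning and 4.66 without cells holding UMIs of other cell types. In IR kidneys the ratio to CD4 was 1.14 (-0.61 to 2.74). With IR CD8 set to the 3 counts that 0 allows, the level in IR DN cells was 3.01-fold higher, a log2 ratio of 1.59. The counting interval was instead taken from the raw counts of 6 and 0. Its lower end was 0.83 and it had no upper end, so it is not an interval of the ratio to 3 counts. The gene was called in no comparison because it lay under 10 CPM.

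For Fcer1g and Tyrobp the ratios of IR to control were smaller than those of DN to the other subsets, whereas for Hcst they were larger. They were set against a general shift, since the median log2 ratio of all genes compared was -0.27 in DN, -0.27 in CD4 and -0.38 in CD8 cells. Of the 5 genes, 1 was at least 2-fold changed in each subset, namely Clnk, which was lower, in DN and in CD4 cells and Fcer1g, which was higher, in CD8 cells. The background over all genes compared was 8.25% higher and 11.3% lower for DN cells after ischemia, 7.69% and 15.3% in CD4, and 7.79% and 18.0% in CD8 cells.

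Clnk in DN cells went from 88.8 to 33.2 CPM, a log2 ratio of -1.42 (-1.67 to -1.17). Genes with long introns were lower in the IR libraries as a class, and the median log2 ratio of genes in the same bin of intronic length as Clnk was -0.76, which leaves -0.66 and ends the call. In CD4 cells the log2 ratio of Clnk was -1.01 (-1.35 to -0.68), against -1.15 for genes of like intronic length, which turns it to 0.14. In CD8 cells the log2 ratio of Clnk was -2.58 (-4.47 to -1.20), at levels below 10 CPM. Genes of like intronic length gave -0.85 there, which leaves -1.73, still past 2-fold. Whether a different counting of intronic reads has a part in these values was not tested.

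Fcer1g in DN cells was at 192 CPM in control and 304 CPM in IR kidneys, a log2 ratio of 0.66 (0.57 to 0.74) and thus under the 2-fold limit. The ratio was 0.74 (0.55 to 0.93) in CD4 and 1.05 (0.79 to 1.30) in CD8 cells, where it was called, and was 0.63 in CD8 cells with the removed features kept in the total. The 3 ratios of Fcer1g thus pointed the same way, though that of CD4 cells was 0.34 without cells holding UMIs of other cell types. For Tyrobp the log2 ratio was 0.13 (-0.07 to 0.33) in DN cells, 0.78 (0.49 to 1.06) in CD4 and 0.29 (-0.09 to 0.64) in CD8 cells, of which the second was 0.0087 without cells holding UMIs of other cell types and the third was -0.13 with the removed features kept. For Hcst it was 0.56 (0.52 to 0.60) in DN, 0.996 (0.97 to 1.02) in CD4 and 0.85 (0.82 to 0.88) in CD8 cells, of which the value in CD4 cells lay just under the limit, at 1.99-fold, and passed it under 6 of the alternatives run. For Syk no IR change was called, and in DN cells its log2 ratio was -0.24 (-1.71 to 0.94).

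**Figure D2:**
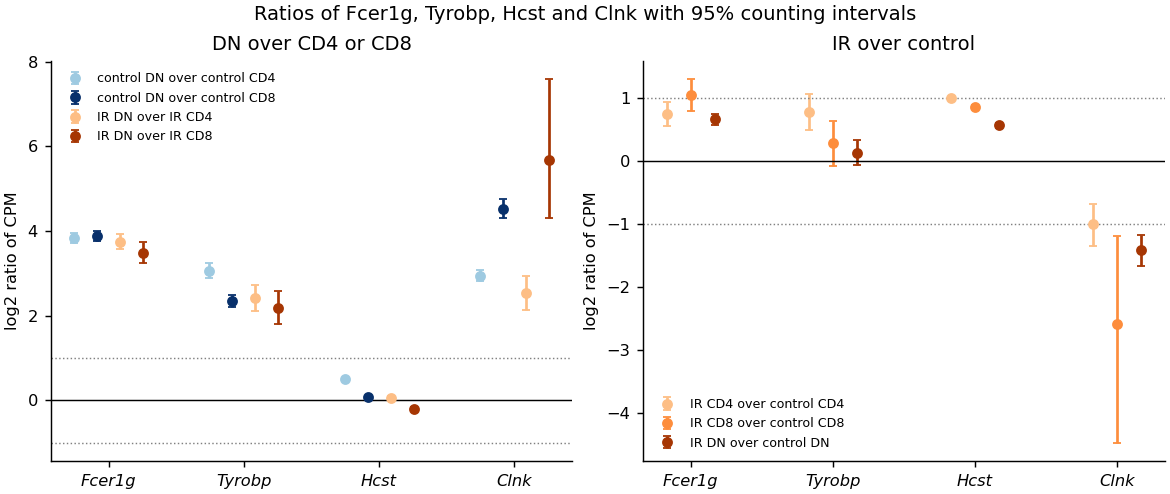
Log2 ratios of CPM for Fcer1g, Tyrobp, Hcst and Clnk, DN over CD4 or CD8 on the left and IR over control on the right. Points are ratios of 1 library to another, error bars are 95% counting intervals and dotted lines mark 2-fold. The 12 ratios of Fcer1g, Tyrobp and Clnk on the left lie above the upper dotted line and the 4 of Hcst lie between the lines, and on the right only Clnk lies below 0.

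Macrophages and neutrophils also carry Fcer1g and Tyrobp. The 13 myeloid marker genes measured summed to 23.0, 17.7 and 9.19 CPM in control CD4, CD8 and DN cells and to 79.6, 31.3 and 20.4 CPM in IR CD4, CD8 and DN cells. The sum of this list was lowest in the DN library of both kidneys. The part of myeloid RNA in the levels of the ITAM adaptors was not tested over libraries. S100a8 was at 0 in the 3 control libraries, and Adgre1 and Csf3r were at 0 in IR DN. Cells with at least 2 UMIs of this list held 1.15% of the Fcer1g UMIs of the control DN library and 1.04% of those of the IR DN library, but 36% of the Fcer1g and 58.0% of the Tyrobp UMIs in IR CD4 cells. Without cells that carried 2 or more UMIs of myeloid, dendritic, mast or B cell markers, the log2 ratio of DN over CD4 in IR kidneys rose from 3.75 to 4.36 for Fcer1g and from 2.41 to 3.61 for Tyrobp. The dendritic, mast cell or basophil and B cell lists summed to 4.53, 1.96 and 1.91 CPM in control DN and 8.49, 2.18 and 17.7 CPM in IR DN cells, with Ms4a2, a mast cell subunit that pairs with Fcer1g, at 0 in all 6 libraries. In IR CD4 and CD8 cells the dendritic list summed to 8.14 and 12.9 CPM and the B cell list to 7.67 and 25.6 CPM. DN cells of IR kidneys were thus not the lowest in these lists.

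Of the lists for related lymphocytes, that for gamma delta T cells was highest in DN cells of both kidneys by its sum, as Fcer1g, Tyrobp and Clnk were, while the NK and naive lists were highest in CD8 cells. The NK list summed to 31.1, 387 and 157 CPM in control CD4, CD8 and DN cells and to 90.5, 681 and 170 CPM in IR kidneys, with Ncr1 as its only gene called higher in control DN cells and none in IR DN. The gamma delta list summed to 93.8, 26.7 and 383 CPM in control and 77.8, 18.9 and 277 CPM in IR kidneys, with Tcrg-C1, Tcrg-C4 and Trgv2 called higher in DN cells of both. Trdc, the constant region of the δ chain, was instead lowest in DN cells, at 3.23, 5.59 and 2.52 CPM in control and 3.77, 4.67 and 1.94 CPM in IR CD4, CD8 and DN cells, and Trdv4 was under 0.2 CPM in all libraries. The invariant NKT list summed to 289, 117 and 297 CPM in control and 183, 99.6 and 159 CPM in IR kidneys, and the naive list to 735, 1054 and 459 CPM and to 1146, 2045 and 375 CPM. Without thinning, control DN cells with at least 2 UMIs of the NK list made up 30.8% (28.9 to 32.8) of Fcer1g positive and 7.64% (7.01 to 8.30) of negative cells, and they held 40.7% of the Fcer1g and 50.7% of the Tyrobp UMIs. In the shallower IR DN library the unthinned shares, not comparable with those of control, were 6.58% (4.68 to 8.96) and 1.14% (0.797 to 1.57), and these cells held 8.30% of the Fcer1g and 19.7% of the Tyrobp UMIs. Cells with 2 UMIs of the gamma delta list were 51.1% of Fcer1g positive and 49.3% of negative control DN cells, and those with 2 of the invariant NKT list were 29.5% and 46.1%. Within the gamma delta list the genes differed, since Trdc was at 4.66 CPM (74 UMIs) in Fcer1g positive and 1.76 CPM (79 UMIs) in negative control DN cells, a log2 ratio of 1.40 (0.92 to 1.88), and Trdv4 had 7 UMIs and 1 UMI, while Tcrg-C1, Tcrg-C4 and Trgv2 had log2 ratios of -0.18 to -0.12. In IR DN cells Trdc had 1 UMI and 7 UMIs. The invariant NKT list also differed by gene, and Zbtb16 held most of its UMIs (2163 and 13460 in Fcer1g positive and negative control DN cells). Its log2 ratio was -1.14 (-1.21 to -1.08). For Cd1d1 it was 0.51 (0.31 to 0.71), for Slamf6 0.31 (0.12 to 0.49) and for Trav11 -0.23 (-0.64 to 0.17). In IR DN cells the intervals of Cd1d1, Slamf6 and Trav11 included 0. The part of these cell types in the DN levels was not tested over libraries.

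After thinning, 16.0% of control DN and 14.5% of IR DN cells held at least 1 UMI of Fcer1g, Tyrobp, Clnk or Syk, against 1.28% to 1.94% of the CD4 and CD8 cells, and 2.67% and 1.99% of DN cells held UMIs of 2 or more of them. Detection was not spread evenly. Among cells thinned to 1000 UMIs, 94 of 8814 control DN cells (1.07%, 0.863 to 1.30) held both an Fcer1g and a Tyrobp UMI, where the product of the separate shares gives 23.0 cells. The count was thus 4.09 times that of independent detection. In IR DN cells it was 49 of 3416 (1.43%, 1.06 to 1.89), or 4.71 times the product. Fcer1g and Clnk were found together 2.51 times as often as their product in control and 2.32 times in IR DN cells, and Tyrobp and Clnk 2.88 and 3.19 times, the last on 6 cells. Pairs of Fcer1g, Tyrobp or Clnk with Hcst lay between 0.975 and 1.13 times the product. The 3 genes that were higher in DN cells thus occurred in the same cells more often than independence gives, whereas pairs with Hcst lay close to it. In the CD4 and CD8 libraries 4 to 11 thinned cells held both Fcer1g and Tyrobp, or 0.0447% to 0.119%. These few cells were 14.05 times the product in control CD4, 31.2 times in control CD8, 30.5 times in IR CD4 and 24.4 times in IR CD8, so the excess over independence was not particular to DN cells.

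A Tyrobp UMI was found in 10.8% (8.79 to 13.0) of thinned control DN cells with Fcer1g and in 1.74% (1.46 to 2.05) of those without. In IR DN cells the shares were 12.1% (9.11 to 15.7) and 1.29% (0.922 to 1.77). For Clnk they were 15.8% (13.4 to 18.4) and 5.24% (4.76 to 5.75) in control and 4.95% (3.05 to 7.54) and 1.76% (1.32 to 2.30) in IR DN cells. For Hcst they were 50.2% and 49.9% in control and 65.3% (60.5 to 70.0) and 58.7% (56.9 to 60.4) in IR DN cells. For Tyrobp the intervals also stayed apart in each of 3 equal groups of cells by depth, in control and in IR DN. In the shallowest of 3 equal groups of control DN cells (median 6283 UMIs), Tyrobp was found without thinning in 19.6% of 638 Fcer1g positive and 2.77% of 2308 negative cells, and in the deepest (median 11435) in 34% of 882 and 4.75% of 2063. For Clnk they stayed apart in all 3 groups of control DN but in 1 of 3 of IR DN, where they overlapped in the shallowest, at 3.76% (1.23 to 8.56) and 1.53% (0.895 to 2.44), and in the middle group. For Hcst they were apart in the shallowest control group, at 90.4% (87.9 to 92.6) and 85.1% (83.5 to 86.5). They were also apart in the deepest IR group, at 89.2% (84.8 to 92.7) and 77.6% (74.9 to 80.2), and overlapped in the others.

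**Figure D3:**
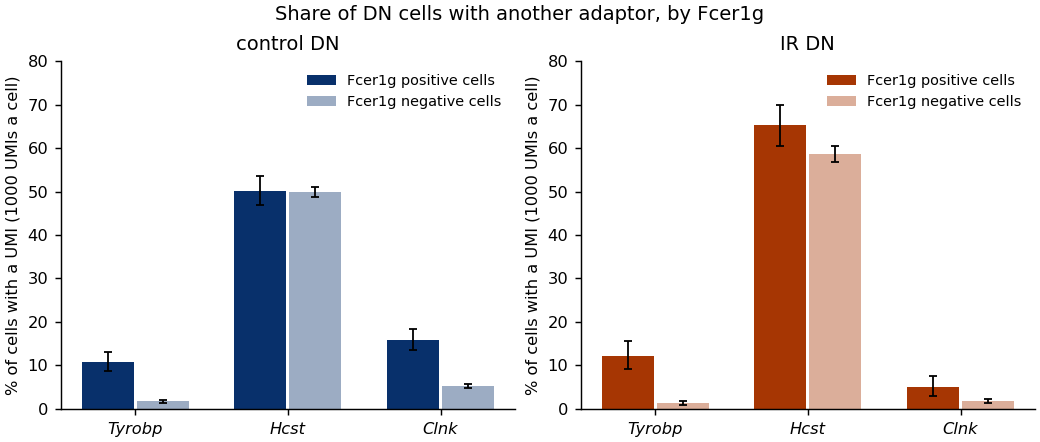
Share of DN cells with a Tyrobp, Hcst or Clnk UMI among cells with (dark) and without (light) an Fcer1g UMI, in control (left) and IR (right) kidneys, each cell thinned to 1000 UMIs. Error bars are exact 95% Clopper-Pearson intervals over the cells of 1 library. The intervals of the dark and light bars are apart for Tyrobp and Clnk in both kidneys, at 10.8% against 1.74% for Tyrobp in control DN cells. Those of Hcst overlap in control and are just apart in IR DN cells.

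Receptors known to need these adaptors were compared next. Klrb1c (NK1.1), which pairs with Fcer1g, was at 48.7, 6.10 and 209 CPM in control CD4, CD8 and DN cells and at 70.8, 8.38 and 236 CPM in IR kidneys. Ncr1 (NKp46), another partner of Fcer1g, was at 15.2 CPM in control DN and at most 0.397 CPM in the CD4 and CD8 libraries of both kidneys. In IR DN cells it was at 6.55 CPM (27 UMIs), under the 10 CPM limit, with a log2 ratio of -1.22 to control DN. Fcer1a, the chain that binds IgE, was at 0 in all 6 libraries. Of the 6 receptors listed as partners of Fcer1g, 2 were called higher in control DN cells and 1 (Klrb1c) in IR DN cells, against 0.829% and 1.61% of all genes compared. Of the 6 listed for Tyrobp or Hcst, Klrc2, Klrc3 and Klrk1 were called higher in DN cells of both kidneys. Klrk1 was at 129, 227 and 619 CPM in control and at 118, 90.6 and 464 CPM in IR CD4, CD8 and DN cells. The reads of Klrc2 and Klrc3, and of the Klra (Ly49) genes below, can be split between near-identical copies, so their levels are uncertain.

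In single cells the receptors and adaptors went together in part. In thinned control DN cells with a Klrb1c UMI, Fcer1g was found in 20.9% (18.7 to 23.2), against 8.07% (7.47 to 8.71) of those without, and in IR DN cells in 94 of 470 (16.5 to 23.9%) and 10.5% (9.44 to 11.7). The 73 control DN cells with Ncr1 included 40 with Fcer1g (54.8%, 42.7 to 66.5) and 21 with Tyrobp (28.8%, 18.8 to 40.6). With Klrk1, Fcer1g was found in 16.5% (15.2 to 18.0) against 6.92% (6.30 to 7.59), while Hcst, its partner, was found in 50.2% (48.3 to 52.1) against 49.8% (48.6 to 51.1). Cells with Pdcd1 (PD-1) gave 10.9% (6.06 to 17.5) for Fcer1g, against 9.89% of those without, and 0 of 129 for Tyrobp. Cells with Zbtb16 (PLZF), the regulator of invariant NKT cells, held Fcer1g less often, at 4.30% (3.31 to 5.50) against 812 of 7397 cells (10.3 to 11.7%) in control and 6.22% (3.44 to 10.2) against 12.2% (11.1 to 13.4) in IR DN cells. Fcer1g was thus found more often beside these NK receptors and less often beside Zbtb16. The other listed invariant NKT genes did not follow Zbtb16 in pooled levels. Cd1d1 and Slamf6 were higher in control DN cells with Fcer1g, and Trav11 did not differ beyond counting error.

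Among genes that act beneath the adaptors, some kinases were higher in DN cells, and no scaffold or negative regulator was called. Of 10 kinases listed, 8 reached 10 CPM in control kidneys, and Lyn and Txk were called higher in control DN cells, against 0.829% of all genes compared. The median log2 ratio of the 8 was 0.53 over CD4 and 0.28 over CD8 cells, where all genes compared gave -0.0011 and -0.02. Lyn reached 10 CPM in control kidneys only in the DN library. These medians thus include a gene admitted by its DN level and cannot show a difference of the kinases as a group. In IR DN cells Lyn was the 1 kinase called, against 1.61% of all genes compared, with medians of 0.30 and 0.11 where all genes gave 0.01 and 0.10. Lyn, a Src family kinase that phosphorylates ITAMs, was at 7.89, 5.17 and 24.1 CPM in control and at 10.5, 10.6 and 23.3 CPM in IR CD4, CD8 and DN cells, with log2 ratios of DN over CD4 and CD8 of 1.61 and 2.22 in control and 1.15 and 1.13 in IR kidneys. Zap70, the relative of Syk that serves the T cell receptor, was at 181, 149 and 210 CPM in control and 118, 89.4 and 145 CPM in IR kidneys. Of the 17 scaffolds and effectors 12 reached 10 CPM and 0 were called higher or lower in DN cells of either kidney, with medians of -0.15 and -0.03 in control and -0.12 and 0.25 in IR kidneys. The same held for the 10 negative regulators, with medians between -0.03 and 0.19. Of the 7 genes of the T cell receptor complex, 0 were called in either kidney, with medians of 0.01 and -0.28 in control and -0.28 and -0.42 in IR kidneys. Cd247, its ITAM-rich chain, was at 507, 436 and 275 CPM in control and 297, 237 and 124 CPM in IR kidneys, with log2 ratios of DN over CD4 of -0.88 and -1.27. Of 18 genes listed for innate-like T cells, 0 were called higher in control DN cells, and Xcl1, Gzmc and Itga1 in IR DN cells, against 0.829% and 1.61% of all genes compared.

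DN cells with an Fcer1g UMI differed from those without in several genes of this pathway. The 7 genes of the T cell receptor complex stayed within 2-fold, with log2 ratios from -0.28 (-0.31 to -0.25) for Trac to 0.10 for Cd247 in control and from -0.08 for Trac to 0.41 (0.33 to 0.49) for Trbc2 in IR DN cells, so that some differed beyond the counting error. Trbc1, Cd3e and Cd3g were below 0 in control and above 0 in IR DN cells. The control DN library held 2183 cells with and 6653 without, at medians of 8789 and 8293 UMIs. With a minimum of 50 CPM, 4376 genes were compared, of which 1.33% lay above and 0.343% below by 2-fold or more in cells with Fcer1g. In IR DN cells, with 562 and 3167 cells, the shares were 1.44% and 1.20% of 4015 genes. Fcer1g UMIs defined these cells, so its own ratio is not given, and since all cells come from 1 library per kidney the ratios describe that library.

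Tyrobp was at 164 CPM with and 10.2 CPM without Fcer1g, a log2 ratio of 4.01 (3.87 to 4.16), and at 258 and 16.5 CPM after ischemia, a ratio of 3.97 (3.53 to 4.42). Clnk was at 212 and 45.3 CPM in control (2.22, 2.14 to 2.30) and 69.3 and 26.3 CPM in IR DN cells (1.40, 0.85 to 1.92). Hcst was at 967 and 931 CPM in control (0.05, 0.03 to 0.08) and 1631 and 1344 CPM in IR DN cells (0.28, 0.18 to 0.38). Of the 104 Syk UMIs of control DN cells 89 lay in cells with Fcer1g and 15 in those without, and in IR DN cells all 6 lay in cells with Fcer1g. Syk was thus rare, and its few UMIs were found mainly where its adaptor was.

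Of the genes that act with Syk in B and myeloid cells, some stood on the same side and others did not. Lyn was at 60.8 CPM with and 11.1 CPM without Fcer1g in control (log2 ratio 2.46, 2.30 to 2.62), and the ratio in IR DN cells was 2.32 (1.71 to 2.93). Lat2, a membrane scaffold of mast and B cells, was at 18.5 and 2.54 CPM (2.86, 2.55 to 3.19), and Plcg2, the phospholipase of B and NK cells, at 23.9 and 1.83 CPM (3.70, 3.36 to 4.07). After ischemia Lat2 gave 15 UMIs with and 9 without Fcer1g, and Plcg2 gave 8 and 6. Btk, a kinase of B and myeloid cells, gave 38 UMIs with and 11 without Fcer1g in control DN cells (log2 ratio 3.28, 2.29 to 4.40) but 0 and 18 in IR DN cells. Card9, a myeloid adaptor, gave 1 and 21 UMIs (-2.90, -8.27 to -0.26) and Blnk, the B cell scaffold, 2 and 9 (-0.67, -3.92 to 1.60) in control DN cells. Among the counterparts in the T cell receptor pathway, Zap70 had a log2 ratio of -0.10 (-0.16 to -0.04), Lck of -0.02 (-0.05 to 0.01), Lat of -0.42 (-0.48 to -0.36) and Plcg1 of -0.59 (-0.69 to -0.49) in control DN cells. After ischemia these were -0.15, 0.04, -0.26 and -1.62.

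The 10 genes with the largest ratio in control DN cells with Fcer1g included Ncr1, Aoah, Klra6, Klra7, Tyrobp, Lrmda, Atp1b1, Klra1 and Klra9. Ncr1 was at 55.0 CPM with and 1.12 CPM without Fcer1g, a log2 ratio of 5.62 (5.21 to 6.06). Of the 10, 4 were Ly49 receptors, with Klra7 at 347 and 20.5 CPM. The 10 genes with the lowest ratio were Ly6c1, Ccr9, Il4, Themis, Ly6a, Slamf1, Plac8, Ckb, Bcl2a1d and Rora. Il4 (interleukin 4) was at 48.0 CPM with and 141 CPM without Fcer1g, and Themis, a regulator of T cell receptor signalling, at 213 and 539 CPM. All 20 genes had a ratio of the same sign in IR DN cells.

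**Figure D4:**
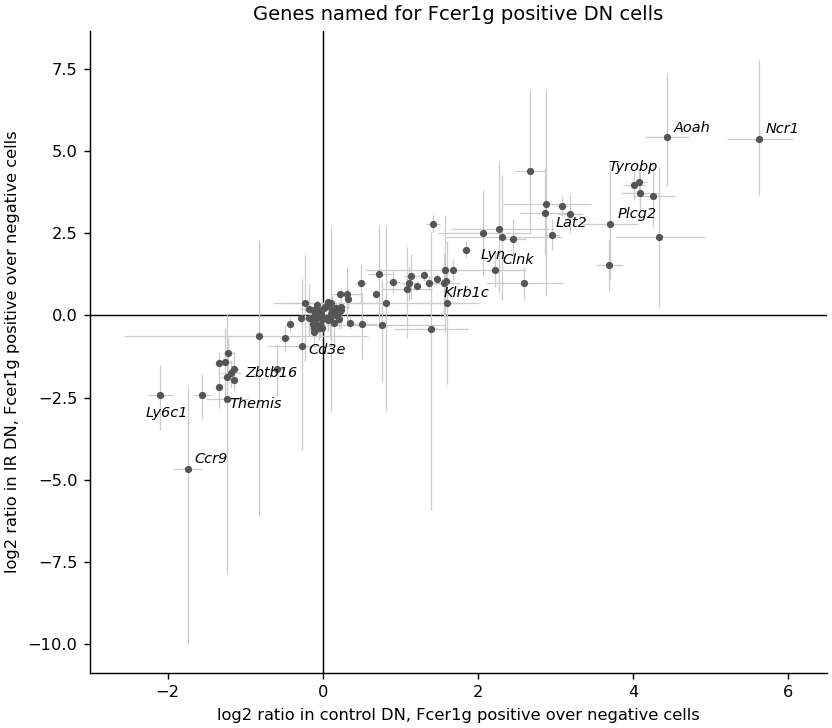
Log2 ratio of CPM in DN cells with over DN cells without an Fcer1g UMI, in control (horizontal) and IR (vertical) kidneys, for 105 genes, namely those listed for the pathway and cell types and the 20 with the largest ratios, where UMIs were present in both kinds of IR DN cells. Bars are 95% counting intervals. Ncr1 lies at 5.62 and 5.38, Tyrobp at 4.01 and 3.97, Cd3e near 0 on both axes and Themis at -1.34 and -2.17.

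Levels were also compared between the 578 control DN cells with both an Fcer1g and a Tyrobp UMI (unthinned, a grouping made after these values were seen) and the 6400 with neither, at medians of 9722.5 and 8276 UMIs. Every cell of both groups held a Cd3 UMI, since this was required of all cells. A Trac, Trbc1 or Trbc2 UMI, which was not required, was found in 578 of 578 cells with both and 6365 of 6400 with neither. Of the T cell receptor complex, Trac, the constant region of the α chain, was at 551 CPM in cells with both and 764 CPM in those with neither, Cd3e at 750 and 835 CPM, Cd3g at 1180 and 1419 CPM and Trbc1 at 777 and 872 CPM. Trbc2 was at 1890 and 1699 CPM, Cd3d at 1079 and 1038 CPM and Cd247 at 319 and 270 CPM, so that 4 of the 7 genes were lower and 3 higher in cells with both adaptors. Trbc1 and Trbc2 are near-identical copies whose reads can be split between them. In the same cells Ncr1 was at 143 against 1.0 CPM, Eomes, a transcription factor of NK and CD8 cells, at 22.2 against 0.698 CPM, and Zbtb16 at 81.0 against 303 CPM. Ncr1 and Eomes belong to the NK list of 8 genes, not all of which differed alike. Between control DN cells with and without Fcer1g, Klra8, Klra4, Gzma and Prf1 were also higher. S1pr5 (log2 ratio 0.11, -0.51 to 0.69) and Khdc1a (-0.83, -2.57 to 0.58) were not. After ischemia 95 DN cells held both adaptors and 3121 neither, at medians of 2004 and 1457 UMIs, with Trac at 610 (481 to 764) and 821 CPM, Trbc2 at 2425 (2159 to 2714) and 1695 CPM and Cd247 at 233 (156 to 334) and 124 CPM. Of the 7 genes 5 were higher there and Trac and Cd3e lower, and the intervals of Cd3d, Cd3e, Cd3g and Trbc1 overlapped between the groups. Ncr1 rested on 12 UMIs with both adaptors and 1 with neither (96.3 and 0.294 CPM), Eomes on 0 and 5 UMIs and Zbtb16 on 2 and 449 UMIs. The part of free RNA in these values was not tested.

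The genes whose levels over the 6 libraries were most like those of each adaptor were found by the root mean square distance of log2(CPM + 1) centred over the libraries, among 9645 genes. For Fcer1g they were Klra5, Klri2, Tyrobp, Ncr1 and Klre1, at distances of 0.58 to 0.74, and for Tyrobp they were Klre1, Lrmda, Klrc3, Klrc1 and Kcnj8 (0.39 to 0.49). Clnk was nearest to Tcrg-C2, Rab27b, Trgv2, Klrb1b and Slc27a6 (0.42 to 0.59), and its distances to Fcer1g and Tyrobp were 1.29 and 1.30. Hcst was nearest to Abhd11, Ndufc1, Sf3a2, Serf2 and 4932422M17Rik (0.05 to 0.07), of which Ndufc1 is a subunit of respiratory complex I and Sf3a2 a splicing factor. Syk lay under 10 CPM, where the added 1 flattens its pattern, and was nearest to Gm41609, Tex14, Rad51c, Gm50211 and Zcchc18 (0.14 to 0.21). Tyrobp and Hcst, although neighbours in the genome, were 1.09 apart.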

How the data were processed

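T cells of 6 groups had been profiled with 10x Genomics 3' single-cell RNA sequencing, 1 library per group, as the titles of the samples name them. The authors had made the deposited matrices of raw UMI counts with Cell Ranger on mm10, without normalization. The methods state version 6.0.1 and default settings, whereas the headers of the control matrices name 5.0.1, and no option for intronic reads or strand is named in the sources used here. Barcodes with at least 500 features, at most 20% mitochondrial UMIs and a Cd3d, Cd3e or Cd3g UMI were kept, and, against doublets, each library lost its top 5% of barcodes by UMI count, with no doublet caller run. Mitochondrial and ribosomal protein genes and Malat1 (104 features) were left out of totals. Counts were summed per library and given as CPM. A gene was called at 10 CPM or more in the higher library and at least 2-fold apart, and for DN cells against both other subsets. A count of 0 was set to 3 counts in ratios. Intervals are exact 95% Poisson, Clopper-Pearson and conditional binomial intervals. They and the floors, 0.0494 to 0.728 CPM, cover counting error only. Thinning to 1000 UMIs left out 22 to 498 cells per library.

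The genes named were the 5 studied, genes of 15 lists that passed the rule or are needed to read it, the 5 nearest genes of each and the 10 most different genes in each direction by Fcer1g. Other list genes, with their values, were named after these were seen. The members and lists were chosen with earlier results of these data known. Clec7a of the myeloid list was not used here, and 1 of the genes named by the rule is not reported here. Positions and intronic lengths came from GENCODE M21, with 99.8% of features matched. The code of the calling rule was tested on simulated data with counting noise only, which bears on the code and not on differences between libraries. Python 3.11.15, numpy 2.4.6, scipy 1.17.1, pandas 2.3.3, R 4.3.3 and edgeR 4.0.16 (TMM factors only) were used. Alternatives were other totals, cell filters, minimum levels, thinning depths and centring within 20 bins of intronic length.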

Additional observations from a re-analysis of the deposited data

Results flagged for a closer look

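Barcodes that passed the filters on features and mitochondrial UMIs but held no Cd3 UMI were outside all comparisons, and 3 of their values were higher in an IR library than in the matching control library beyond counting error. Fcer1g was at 137 CPM (106 to 173) in 450 such barcodes of IR CD4, against 42.1 CPM in 251 of control CD4. Hcst was at 545 CPM (482 to 613) in the same IR CD4 barcodes, against 169 CPM in control CD4, and at 750 CPM (667 to 841) in 412 barcodes of IR DN, against 258 CPM in 78 of control DN. The Fcer1g UMIs lay in 13 IR CD4 barcodes (2.89%, 1.55 to 4.89) and 5 control CD4 barcodes (1.99%, 0.65 to 4.59). These shares overlap, and the counting intervals treat the UMIs of a barcode as independent. Hcst was found in 35.6% and 20.3% of IR and control CD4 barcodes and in 42.7% (37.9 to 47.7) and 29.5% (19.7 to 40.9) of IR and control DN barcodes. Other values of such barcodes were higher in the control library. In DN barcodes Fcer1g was at 500 CPM (388 to 634) in control and 163 CPM (125 to 208) in IR, Tyrobp at 361 and 112 CPM and Clnk at 155 and 5.09 CPM. These UMIs lay in 8 and 24 barcodes for Fcer1g, 5 and 9 for Tyrobp and 10 and 2 for Clnk. The intervals of the shares of barcodes overlapped for Fcer1g and Tyrobp but not for Clnk. In CD8 barcodes Fcer1g was at 125 and 24.1 CPM and Tyrobp at 114 and 18.7 CPM. The control CD8 UMIs lay in 3 barcodes for Fcer1g and 2 for Tyrobp out of 165, and the IR CD8 UMIs in 5 and 3 of 405. The intervals of these shares overlap. What cells these barcodes hold was not tested.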

How the results depend on the processing

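The 3 members higher in DN cells of each kidney stayed 3 under the alternatives run, except that they were 4 in both kidneys with no minimum CPM, where Syk also passed, and 2 in IR kidneys at a minimum of 50 CPM, which Clnk did not reach. No paired analysis was possible because each group is 1 library and the labels give no replicate numbers. All genes higher in control DN cells, 75 in the main count, numbered 735 with no minimum CPM and 31 at a minimum of 50 CPM. In IR DN cells 146 became 220 with the removed features kept in the total, 1098 with no minimum and 49 at 50 CPM. The single member changed in IR against control DN cells became 0 after centring by intronic length.

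In CD4 cells the 1 changed member became 3 with the top 5% of barcodes kept or with no cell filters, 2 with no Cd3 UMI required, thinning, a mean over cells or no minimum CPM, and 0 with the removed features kept, without cells holding other cell type UMIs, without shared barcodes, at 50 CPM and after centring, where the log2 ratio of Clnk turned from -1.01 to 0.14. In CD8 cells 1 became 2 with no minimum CPM and 0 with the removed features kept, no cell filters, no Cd3 UMI required or 50 CPM. Cells with both Fcer1g and Tyrobp made up 6.54% without thinning and 0.453% at 500 UMIs in control DN, and 2.55% and 0.697% in IR DN, which depth sets. Of 168 alternative ratios in called comparisons 167 kept their sign and 11 fell below 2-fold, all of them for Clnk in IR against control CD4 or DN cells or for Fcer1g in IR against control CD8 cells. A further 11 ratios that were not called passed 2-fold, all in IR against control CD4 cells and for Hcst, Tyrobp or Fcer1g. In CD4 cells Clnk fell below 2-fold under 7 alternatives and below the minimum level with the removed features kept or at 50 CPM, and under TMM scaling or with a T cell receptor UMI also required the 1 changed member was Hcst in its place. After thinning the log2 ratio of Clnk in IR DN over CD8 cells was 6.73.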
